A study of Mus musculus with 18 samples.

Results

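Fos was the gene by which the arrays of this mouse hypothalamus series were compared. The 18 arrays were ranked by the log2 value of the only probeset that the platform annotation pairs with Fos alone, and the 6 highest were set against the 6 lowest, so that 12 of 18 arrays entered the comparison and 6 of middle rank stayed out. Because the arrays were chosen by a measured value, that of Fos, the difference in Fos is no finding. The other genes are described without a test, and tests were kept for the labels, which the ranking did not use. The genotype labels played no part in the choice.

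Each array measured total RNA of a hypothalamus dissected under a microscope, from wild-type mice or mice mutant for Wfs1, the gene of wolframin, a membrane glycoprotein of the endoplasmic reticulum. The genetic background is 129SV per the sample fields and 129S6 per the design text. The sources used here give no age, sex, time of day or treatment before dissection, and do not describe the Wfs1 allele. Every array carries a genotype field, WFS1 KO on 9 arrays and WFS1 WT on 9, and a title ending, ko on 10 and wt on 8. The field and the ending contradict each other on 9 arrays, so arrays are named here by ending, field and a number, as in ko/WT 4. No label ties an array to a separate animal, so the p-values below measure only how far these arrays scatter, which may be partly technical.

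Immediate early genes are transcribed within minutes of a stimulus, without new protein synthesis. In neurons, calcium entry and receptor signalling activate kinases that phosphorylate CREB and ternary complex factors already bound at the promoters of Fos, Egr1 and their relatives. Their products are transcription factors (the Fos, Jun, Egr and Nr4a families, Npas4), enzymes and adaptors that act at the synapse, and inhibitors such as Dusp1 that end the signal. In the hypothalamus, Fos is widely used as a mark of recently active neurons, and handling, fasting and stress are known to raise it. The array reads whole tissue, so fewer active cells and less RNA per cell cannot be told apart.

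Fos ranged from 7.27 to 8.31 log2 units over the 18 arrays. In the high group it was lowest on ko/WT 5 at 7.98, had a median of 8.18 and was highest on wt/KO 3 at 8.31. In the low group it was lowest on wt/WT 3 at 7.27, had a median of 7.43 and was highest on wt/KO 2 at 7.61. The group means were 8.16 ± 0.12 (SD, n = 6) and 7.43 ± 0.14 (SD, n = 6). The upper boundary fell in a continuous run, with 7.98 on the last array inside and 7.95 on wt/WT 2, the first outside. The lower boundary fell in a wider gap, between ko/KO 2 outside at 7.83 and wt/KO 2 inside at 7.61. The 6 middle arrays spanned only 0.12 log2 units, from 7.83 to 7.95.

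The high and low arrays were alike in their overall distributions. Array medians ran from 7.11 to 7.18 in the high group and from 7.10 to 7.17 in the low group, and the mean correlation of an array with the others from 0.984 to 0.987 in both. A pair of arrays in the comparison stood apart by other genes. The array wt/WT 3, in the low group, had the highest value of Ttr, a choroid plexus transcript, at 12.80, and ko/WT 4, in the high group, had Xist at 5.93 against 10.31 to 10.79 on the other 17. Wfs1 itself was 8.42 ± 0.26 (SD, n = 6) in the high group and 8.13 ± 0.28 (SD, n = 6) in the low group, which overlapped. It separated the arrays of neither label: by ending, Wfs1 was 8.31 ± 0.31 for ko (SD, n = 10) and 8.12 ± 0.25 for wt (SD, n = 8; exact permutation p = 0.206), and by field KO less WT was 0.06 (exact permutation p = 0.694). Genotypes below are therefore only those of the labels. Of 27 hypothalamic neuropeptides measured, 19 had a mean over the 18 arrays above every array median, up to 11.75 for Pmch, while the lowest was Prok2 at 6.31.

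The promoters of 5 genes that the results turn on are printed here, because CREB binds the letters TGACG and, more tightly, the palindrome TGACGTCA. Each sequence is the 250 bases before the transcription start on the gene's own strand, from RefSeq (GRCm38.p6), with TGACG or its reverse complement CGTCA in capitals, and both together where they overlap as TGACGTCA. The window of Fos lies at chr12:85473640-85473889 (plus strand), Nr4a1 at chr15:101266596-101266845 (plus), Dusp1 at chr17:26508473-26508722 (minus), Btg2 at chr1:134079156-134079405 (minus) and Npas4 at chr19:4989972-4990221 (minus).
Fos: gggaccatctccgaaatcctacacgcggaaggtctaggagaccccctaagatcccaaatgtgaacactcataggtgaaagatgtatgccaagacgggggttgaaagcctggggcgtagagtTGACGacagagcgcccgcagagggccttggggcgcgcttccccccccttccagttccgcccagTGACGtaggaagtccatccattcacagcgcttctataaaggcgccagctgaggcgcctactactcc
Nr4a1: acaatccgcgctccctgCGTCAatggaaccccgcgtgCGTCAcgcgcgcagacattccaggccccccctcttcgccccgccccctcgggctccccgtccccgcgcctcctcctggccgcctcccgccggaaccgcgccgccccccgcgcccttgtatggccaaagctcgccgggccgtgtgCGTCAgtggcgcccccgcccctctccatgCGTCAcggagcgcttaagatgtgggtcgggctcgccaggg
Dusp1: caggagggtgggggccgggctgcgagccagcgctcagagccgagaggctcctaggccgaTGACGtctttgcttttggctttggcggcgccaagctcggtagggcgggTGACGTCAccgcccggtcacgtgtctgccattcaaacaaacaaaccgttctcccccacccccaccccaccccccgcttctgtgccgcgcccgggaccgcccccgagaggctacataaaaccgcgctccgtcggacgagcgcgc
Btg2: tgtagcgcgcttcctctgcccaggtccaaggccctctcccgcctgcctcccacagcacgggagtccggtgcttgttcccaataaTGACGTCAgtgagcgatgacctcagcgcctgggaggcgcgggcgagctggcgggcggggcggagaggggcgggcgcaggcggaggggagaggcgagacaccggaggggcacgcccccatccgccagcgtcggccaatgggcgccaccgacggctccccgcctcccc
Npas4: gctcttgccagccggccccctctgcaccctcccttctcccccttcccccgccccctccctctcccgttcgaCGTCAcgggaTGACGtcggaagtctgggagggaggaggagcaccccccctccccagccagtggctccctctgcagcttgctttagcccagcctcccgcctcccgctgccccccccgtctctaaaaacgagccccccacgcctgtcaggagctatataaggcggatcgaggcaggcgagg
All 5 windows hold the TGACG letters on at least 1 strand. The number of matches was 2 in Fos, 4 in Nr4a1, 3 in Dusp1, 2 in Btg2 and 2 in Npas4. The palindrome TGACGTCA occurs in Dusp1 and Btg2, where it accounts for a pair of the matches. The CArG box, the binding element of serum response factor, was searched on both strands and is in none of these 5 windows, which says only that these letters are not in the 250 bases shown.

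The genes most like Fos over the 18 arrays were Egr1, Dusp1, Nr4a1 and Btg2. These 4 were the only genes, of 19936 other than Fos, whose Pearson correlation with Fos over the 18 arrays was above 0.8. The coefficients were 0.896 for Egr1, 0.882 for Dusp1, 0.844 for Nr4a1 and 0.826 for Btg2 (Spearman 0.860, 0.895, 0.859 and 0.903). They describe arrays of a single series, whose normalization the sources do not describe in full. Each of the 4 lay higher on every high-Fos array than on any low-Fos array. Such a full separation upwards was seen for 62 genes in all, 0.311% of the 19936, and separation downwards for 52, 0.261%.

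Egr1, a zinc finger transcription factor that responds to the same kinases as Fos, ran from 7.81 through a median of 7.90 to 8.15 on the high-Fos arrays and from 7.36 through 7.47 to 7.59 on the low-Fos arrays. The means were 7.95 ± 0.13 and 7.48 ± 0.08 (SD, n = 6 each), a difference of 0.47 log2 units. The difference of the means was larger than the SD of either group. On its own ranking, 5 of the 6 arrays highest in Egr1 were high-Fos arrays and all 6 of the lowest were low-Fos arrays; the exception was wt/WT 1, a middle array by Fos, with Egr1 at 7.92.

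Nr4a1, an orphan nuclear receptor, ran from 8.53 through 8.68 to 8.90 on the high-Fos arrays and from 8.02 through 8.16 to 8.28 on the low-Fos arrays. The difference of the means was 0.53 (8.67 ± 0.13 against 8.14 ± 0.10, SD, n = 6 each). All 6 arrays highest in Nr4a1 were high-Fos arrays, and its lowest value of all was on the middle array ko/KO 2. Dusp1, the phosphatase that inactivates MAP kinases, ran from 9.45 through 9.65 to 9.89 against 8.85 through 9.03 to 9.24. Its difference of 0.62 (9.66 ± 0.14 against 9.04 ± 0.18, SD, n = 6 each) was the largest among the 62 separated genes. Btg2, which recruits the mRNA deadenylase complex, ran from 7.51 through 7.74 to 7.77 against 6.80 through 7.28 to 7.44. Its difference was 0.48 (7.69 ± 0.11 against 7.22 ± 0.24, SD, n = 6 each), and the array ko/WT 2 lay below the others at 6.80.

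Npas4, a transcription factor induced in neurons by calcium entry, followed Fos less closely. It ran from 6.92 through 7.22 to 7.61 on the high-Fos arrays and from 6.63 through 6.96 to 7.25 on the low-Fos arrays, and the groups overlapped. The means were 7.20 ± 0.25 and 6.93 ± 0.21 (SD, n = 6 each). Its correlation with Fos was 0.633 (Spearman 0.584) over the 18 arrays and 0.419 without wt/WT 3 and wt/KO 1, the arrays farthest from the median of Fos. For Egr1, Dusp1, Nr4a1 and Btg2 the same step gave 0.865, 0.860, 0.856 and 0.796. The array highest in Npas4, ko/KO 1 at 7.61, was second in Fos, but the low-Fos array ko/KO 3 had Npas4 at 7.25 and the high-Fos array ko/WT 5 at 6.92. Ranked by Npas4, 4 of its 6 highest arrays were high-Fos arrays and 1 was a low-Fos array.

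**Figure D1:**
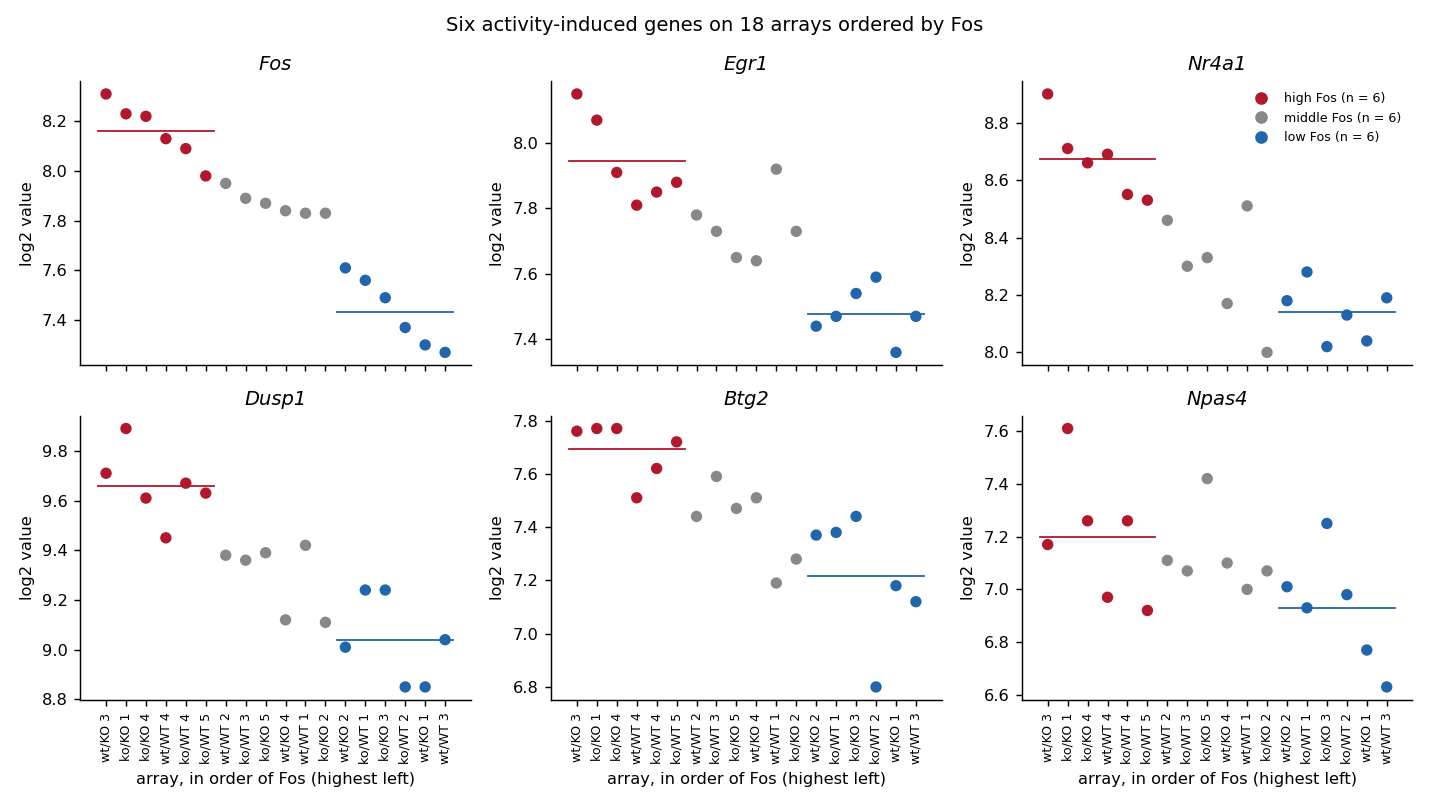
Log2 value of Fos, Egr1, Nr4a1, Dusp1, Btg2 and Npas4 (y axes, each with its own range) on the 18 arrays ordered by Fos from left to right, with red for the 6 high-Fos, grey for the 6 middle and blue for the 6 low-Fos arrays and lines at the group means. Egr1, Nr4a1, Dusp1 and Btg2 have no blue point as high as any red point, while Npas4 has red points down to 6.92 and a blue point at 7.25.

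The 4 genes also followed one another. Egr1 correlated with Nr4a1 at 0.856 and with Dusp1 at 0.872 over the 18 arrays, and Dusp1 with Btg2 at 0.840, while Egr1 with Btg2 gave 0.641 and Nr4a1 with Npas4 0.391. Within the label groups the correlations of the 4 genes with Fos lay between 0.802 and 0.955. Within the 10 arrays of ending ko they were 0.904 for Egr1, 0.835 for Nr4a1, 0.885 for Dusp1 and 0.839 for Btg2, and within the 8 of ending wt 0.892, 0.887, 0.911 and 0.870. Within the 9 arrays of field KO they were 0.955, 0.890, 0.892 and 0.901, and within the 9 of field WT 0.842, 0.905, 0.896 and 0.802. Npas4 gave 0.537 with ending ko and 0.847 with ending wt, and 0.644 and 0.690 by field.

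The rest of the immediate early transcription factors did not move as one block. Of the 24 measured besides Fos, 13 had the higher mean on the high-Fos arrays and 11 on the low-Fos arrays, where 44.2% of all genes had the higher mean on the high-Fos arrays. The median difference of the list was 0.04, and the median of all genes was -0.01. Only Egr1 and Nr4a1 of the 24 were separated. Next in size came the other Nr4a receptors: Nr4a3 differed by 0.34 (7.33 ± 0.20 against 6.99 ± 0.16, SD, n = 6 each) and Nr4a2 by 0.27 (8.66 ± 0.22 against 8.39 ± 0.13, SD, n = 6 each), both with overlapping groups. Klf6, a zinc finger factor, differed by 0.19, and Fosb and Jun, which form AP-1 dimers with Fos and its relatives, by 0.16 and 0.15, again with overlap.

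Several close relatives of the genes that followed Fos differed little. Junb had means of 7.17 ± 0.12 and 7.18 ± 0.19 (SD, n = 6 each), and Egr2 6.58 ± 0.06 and 6.55 ± 0.09 (SD, n = 6 each). Egr3 was 8.10 ± 0.08 against 8.15 ± 0.12 and Egr4 7.48 ± 0.13 against 7.54 ± 0.13 (SD, n = 6 each). The differences of these 4 lay within the spread of either group. At the low end of the list stood Ier5 at -0.14 (7.42 ± 0.14 against 7.56 ± 0.11, SD, n = 6 each), Klf4, a zinc finger factor, at -0.14, and Jund, a Jun relative, at -0.12, with overlapping groups. Correlations with Fos in the list ran from -0.495 for Ier5 to 0.896 for Egr1. Windows of 19 of the 25 listed genes were in the promoter table, and 12 of these, 63.2%, held TGACG on either strand, where 21.6% of the measured genes with a window did. None of the 19 held the palindrome TGACGTCA, which 2.12% of the measured genes did. Nr4a2 and Nr4a3 each have 4 matches, as Nr4a1 does, while Jun, Jund, Klf6 and Egr2 are among those with none.

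**Figure D2:**
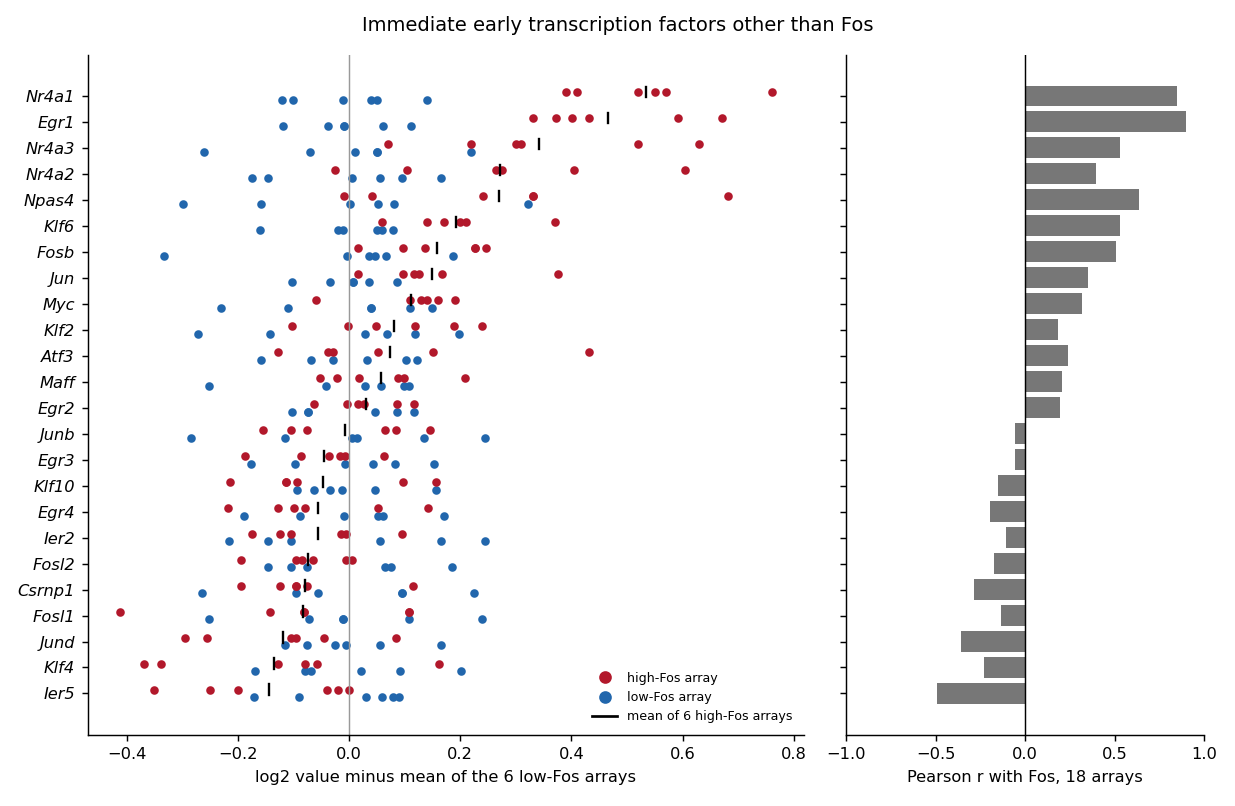
Left, log2 value of each of the 24 immediate early transcription factors other than Fos on the 6 high-Fos (red) and 6 low-Fos (blue) arrays, less the mean of the low-Fos arrays, with a black tick at the mean of the high-Fos arrays. Right, Pearson correlation of each gene with Fos over the 18 arrays; Nr4a1 and Egr1 lead at 0.844 and 0.896, and the red and blue points overlap for the other 22 genes.

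Among the genes that end the signal, of 18 feedback inhibitors 13 had the higher mean on the high-Fos arrays, with a list median of 0.08, and Dusp1 and Btg2 were separated. Here and in the lists that follow, such counts stand beside 44.2% of all genes with the higher mean on the high-Fos arrays. Behind them came Sik1, a kinase that restrains the CREB coactivators, with a difference of 0.24, Spry4 with 0.19, Nfkbia with 0.17 and Dusp6, a phosphatase specific for ERK, with 0.16. The groups overlapped for these 4, which were chosen after their values were seen. The lowest of the list, Ier3, differed by -0.11.

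Of 24 synaptic and secreted effectors, 16 had the higher mean on the high-Fos arrays and none was separated. The list median was 0.03. Gadd45g, a stress-inducible regulator of growth and DNA demethylation, had means of 8.49 ± 0.17 and 8.18 ± 0.12 (SD, n = 6 each), a difference of 0.31. Plk2, a kinase that acts on synaptic proteins, differed by 0.23 (9.48 ± 0.12 against 9.24 ± 0.16, SD, n = 6 each). Several classical activity-regulated genes differed little between the groups, and they are named here with their values in view: Arc 0.05, Bdnf -0.01, Nptx2 -0.02, Homer1 0.10 and Ptgs2 0.01.

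Upstream of Fos, 9 of 24 kinases, coactivators and transcription factors had the higher mean on the high-Fos arrays and 15 the lower, with a list median of -0.03. Over all genes, 44.2% had the higher mean there, so most genes of any kind were lower. Rps6ka3, the kinase RSK2 that phosphorylates CREB, was separated upwards (8.41 ± 0.08 against 8.19 ± 0.07, SD, n = 6 each). Crtc1, a CREB coactivator, was separated downwards, from 8.92 through 9.07 to 9.16 against a narrow 9.18 through 9.20 to 9.22. Camk2a, the alpha subunit of calcium/calmodulin kinase II, was separated downwards too, from 10.96 through 11.03 to 11.08 against 11.10 through 11.13 to 11.23. These shifts were small, at 0.21, -0.14 and -0.12, and that of Rps6ka3 was 0.12 when the array low in Xist was left out and the others ranked anew.

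Heat shock genes were mostly higher on the high-Fos arrays. Of 14 measured, 13 had the higher mean there, where 44.2% of all genes did, with a list median of 0.09. Chordc1, a co-chaperone of Hsp90, was separated, from 9.43 through 9.53 to 9.62 against 8.86 through 9.08 to 9.27, a difference of 0.44. Cryab, a small heat shock protein, differed by 0.25, Hsph1 by 0.16 and Dnajb1 by 0.16, with overlap; these 3 were named after their values were seen. Hspa1a, the inducible Hsp70, differed by 0.09 (7.81 ± 0.08 against 7.72 ± 0.12, SD, n = 6 each). The mean level of the list ran from 10.04 to 10.11 on the high-Fos arrays and from 9.93 to 10.01 on the low-Fos arrays.

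Other response programmes showed little common direction. Glucocorticoid response genes had a median of 0.01, 8 of 15 being higher and 6 lower. Errfi1, an inhibitor of the EGF receptor, was separated (9.38 ± 0.09 against 9.17 ± 0.07, SD, n = 6 each), and the largest difference of the list, 0.37, was that of the kinase gene Sgk1 (9.09 ± 0.23 against 8.72 ± 0.33, SD, n = 6 each), with overlap. Among other known targets of the receptor, named after their values were seen, Pdk4 differed by 0.23, Tsc22d3 by 0.14 and Fkbp5 by -0.06, all with overlap. Of 16 hypoxia response genes 8 were higher and 8 lower, led by Ddit4 at 0.19 and Pfkfb3 at 0.17. Of 28 genes of the unfolded protein response, the pathway most often tied to Wfs1, 16 were higher and 12 lower, with a median of 0.01 and differences from -0.14 to 0.09. The largest was that of Ddit3, -0.14, and -0.08 without wt/KO 1. The mean level of these 28 ran from 9.30 to 9.43 on the high-Fos arrays and from 9.29 to 9.42 on the low-Fos arrays.

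Among 16 inflammatory early genes 11 were lower on the high-Fos arrays, led by Cxcl2 at -0.44 and Il1a at -0.40. Both are dim, with Cxcl2 at 5.37 ± 0.25 against 5.81 ± 0.16 and Il1a at 5.02 ± 0.25 against 5.42 ± 0.17 (SD, n = 6 each), and the groups overlapped. Of 19 circadian clock genes 7 were higher and 12 lower, where 44.2% of all genes were higher. The largest differences were -0.10 for Rora, which was -0.06 without ko/KO 4, and 0.09 for Per3, which was 0.04 without wt/WT 3.

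Across all genes, the contrast was narrow. The median difference of the 19936 genes was -0.01 log2 units and 98% of the genes lay between -0.23 and 0.24. The 62 genes separated upwards differed by 0.08 to 0.62, with a median of 0.21, and the 52 separated downwards by -0.35 to -0.09, with a median of -0.15. Only 3 genes differed by more than Fos itself, which differed by 0.73: Tph2 at 1.27 and the dim genes Olfr1290 at 1.01 and AI506816 at -0.998. None of these 3 was separated. With ko/WT 4, the array low in Xist, left out and the other 17 ranked anew, wt/WT 2 entered the high group; its mean correlation with the other arrays, 0.979, was the lowest of the 18. In that comparison 19 genes were separated upwards, 10 of them among the 62, and 49 downwards, 28 of them among the 52. Leaving out ko/WT 4 alone, with no array in its place, gave 90 and 93. Leaving out any 1 of the 12 arrays without a new ranking, which makes separation easier by construction, gave 67 to 137 genes upwards and 61 to 126 downwards. The 62 and the 52 were among them each time, as they must be when arrays are only removed. More than 1.5 times the count resulted upwards without wt/KO 1, wt/KO 2, wt/KO 3, ko/KO 4 or wt/WT 4, and downwards without each of these or ko/KO 1, ko/WT 4 or wt/WT 3. Without ko/WT 4 and with the new ranking, Egr1, Nr4a1, Dusp1 and Btg2 differed by 0.46, 0.52, 0.57 and 0.45. Egr1, Nr4a1 and Dusp1 stayed separated there. Btg2 did not, since wt/WT 2 had 7.44, the value of the low-Fos array ko/KO 3. Chordc1, Errfi1, Ugt8a and Rps6ka3, called separated above or below, overlapped in that comparison, with wt/WT 2 at 9.16, 9.12, 9.39 and 7.82.

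**Figure D3:**
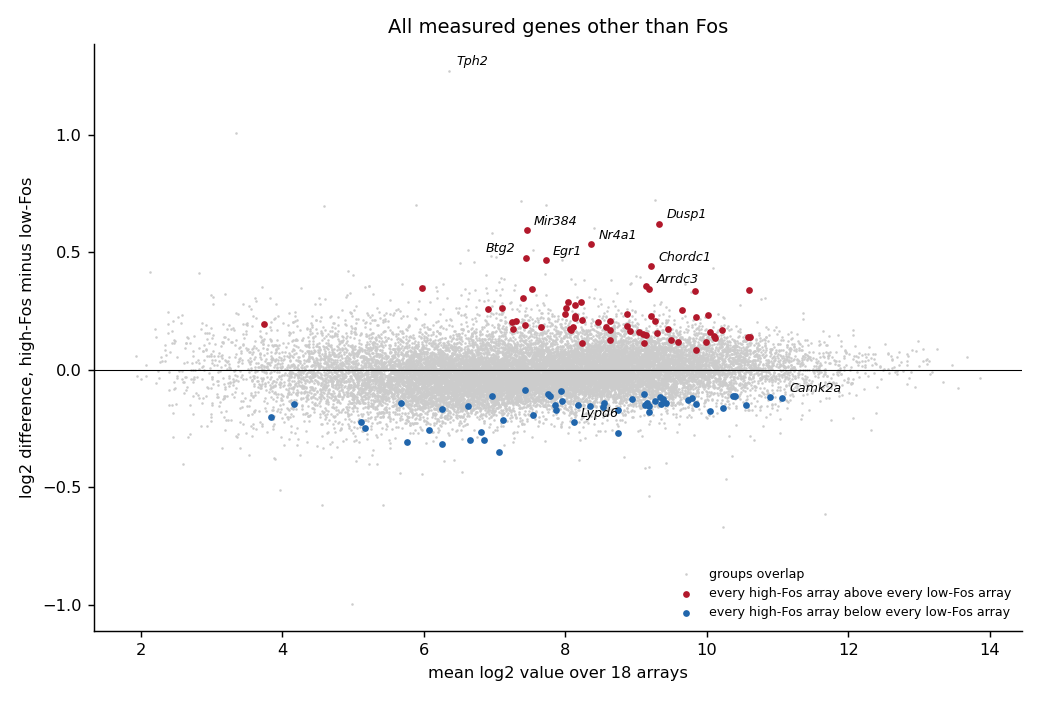
Log2 difference of the means of the 6 high-Fos and 6 low-Fos arrays (y axis) against the mean log2 value over 18 arrays (x axis) for the 19936 genes other than Fos, with 62 genes in red where every high-Fos array lies above every low-Fos array and 52 in blue for the reverse. Dusp1, Mir384, Nr4a1, Btg2, Egr1 and Chordc1 lead the red points, and Tph2, at 1.27, is the highest point of all although its groups overlap.

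The second largest difference among the separated genes was that of the microRNA gene Mir384. It ran from 7.56 through 7.82 to 7.96 on the high-Fos arrays and from 6.73 through 7.32 to 7.40 on the low-Fos arrays, a difference of 0.59, and its correlation with Fos, 0.785, was the fifth highest. The target was made from total RNA by whole-transcript labelling, and the signal is no measure of the mature microRNAs. These are, from RefSeq (GRCm38.p6, chromosome X, minus strand) with the seed, bases 2 to 8, in capitals:
mmu-miR-384-5p: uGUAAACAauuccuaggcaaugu
mmu-miR-384-3p: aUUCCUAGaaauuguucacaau
The arms have different seeds, and that of miR-384-5p, GUAAACA, is the seed of the miR-30 family.

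Outside the lists, the largest upward differences among separated genes at or above the median brightness began with Commd6, which differed by 0.36, and Arrdc3, an arrestin-domain protein that directs receptors to degradation, by 0.35. Arrdc3 ran from 9.29 through 9.43 to 9.47 against 8.81 through 9.03 to 9.27, so that only 0.02 log2 units parted the groups. Hnrnpc, which packages pre-mRNA, differed by 0.34 (10.80 ± 0.19 against 10.46 ± 0.14, SD, n = 6 each). Taf1d, a subunit of the RNA polymerase I initiation factor, differed by 0.29, Clp1, an RNA kinase of 3′ end formation and tRNA splicing, by 0.28, and Prpf39, a splicing factor, by 0.24. Mettl4, Tmem100, Tbc1d19, Nudt12, Sncg and Elmod2 completed the 12, with differences of 0.23 to 0.29. Of these 12, only Hnrnpc and Elmod2 stayed separated when ko/WT 4 was left out and the other arrays were ranked anew. Mc4r, the melanocortin receptor through which the hypothalamus restrains feeding, was separated at a lower brightness, from 6.93 through 7.03 to 7.30 against 6.67 through 6.84 to 6.87; it was chosen after its values were seen. Among genes that correlated most with Fos, Tm6sf2, Gpr137b-ps and Otud3 followed at 0.716, 0.709 and 0.708.

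Downward differences were smaller. Drap1, a corepressor of general transcription, led at -0.27 (8.57 ± 0.16 against 8.85 ± 0.08, SD, n = 6 each). Lypd6, a membrane-anchored modulator of nicotinic receptors and Wnt signalling, ran from 7.84 through 8.04 to 8.12 against 8.18 through 8.25 to 8.28, and had the lowest correlation with Fos of all genes, -0.767. Frrs1l, an auxiliary protein of AMPA receptors, differed by -0.15 and correlated at -0.754. Gsk3a, a kinase of insulin and Wnt signalling, differed by -0.18, Grm4, a metabotropic glutamate receptor, by -0.17, and Srebf1, a regulator of lipid synthesis, by -0.15. Pcbp3, Mettl27, Phpt1, Zfp777, Nova2 and Tcerg1l made up the 12, at -0.18 to -0.15. Tnfrsf4 and Tiam1 correlated with Fos at -0.748 and -0.741.

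The promoter letters were counted over the separated genes. Of the 62 genes separated upwards, 49 had a window in the table and 19 of these, 38.8%, held TGACG on either strand. The same held for 11 of 39 windows, 28.2%, among the 52 separated downwards, and for 21.6% of the 15613 measured genes with a window. The palindrome TGACGTCA was in 6 of the 49 windows, 12.2%, in 0 of the 39 and in 2.12% of measured genes. The 6 genes were Dusp1, Btg2, Mettl4, Clk4, Zfp595 and B230354K17Rik. The letters TGANTCA, with any base at N, include the AP-1 site that the Fos protein binds together with Jun, but are wider than it. They were in 0 of the 49 windows, 1 of the 39 and 6.11% of measured genes. The CArG box was in 0 of both sets and 1.25% of measured genes. These are counts of letters in 250 bases, with no test, and genes without a window are left out.

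Several marker lists of cells and regions differed between the Fos groups, and their part in the results above was not tested. The counts of higher and lower markers from here on stand beside 44.2% of all genes with the higher mean on the high-Fos arrays. Meningeal and fibroblast markers had the highest median of the 28 lists, 0.25, with 11 of 13 genes higher on the high-Fos arrays. The mean level of these 13 ran from 7.07 through 7.40 to 7.56 on the high-Fos arrays and from 6.98 through 7.10 to 7.21 on the low-Fos arrays. Ogn, an extracellular matrix proteoglycan, was 6.28 to 6.92 on ko/KO 1, ko/KO 4, wt/WT 4 and ko/WT 4, and 5.57 and 5.76 on the other high-Fos arrays, against 5.41 to 5.75 in the low group. Aldh1a2, the retinoic acid enzyme of the meninges, differed by 0.48, while Col1a1 and Lum differed by -0.06 and -0.01.

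Serotonin genes showed a like pattern on some of the same arrays. Tph2, the neuronal enzyme of serotonin synthesis, was 6.49 to 8.06 on 5 of the high-Fos arrays and 5.82 on wt/KO 3, against 5.61 to 5.96 in the low group. Slc6a4, the serotonin transporter, was 6.94 ± 0.43 against 6.43 ± 0.17 (SD, n = 6 each), with overlap. Of the 12 dopamine and serotonin markers 10 were higher on the high-Fos arrays, with a list median of 0.13 and a mean level of 8.27 to 8.84 against 8.15 to 8.52. The array wt/KO 3, highest of all in Fos, Egr1 and Nr4a1, lay within the range of the low group in both Ogn, 5.57, and Tph2, 5.82. The middle arrays ko/KO 5 and wt/KO 4 had Ogn at 6.80 and 6.29, with Fos at 7.87 and 7.84. These arrays were picked after their values were seen, and the part of Ogn and Tph2 in the Fos groups was not tested.

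Glial markers differed less. Of 18 oligodendrocyte and myelin markers 15 were higher on the high-Fos arrays, with a median of 0.08 and a mean level of 9.28 to 9.52 against 9.24 to 9.40. Ugt8a, which makes the myelin lipid galactosylceramide, was separated at 0.34 (10.09 ± 0.17 against 9.75 ± 0.05, SD, n = 6 each). Of 15 astrocyte markers 8 were higher, led by the water channel Aqp4 at 0.26 and Gjb6 at 0.13. Of 14 endothelial and mural markers 10 were higher, led by Acta2 at 0.29 and Tek at 0.22. Of 13 microglia markers 8 were lower, led by Tyrobp at -0.18 and Fcrls at -0.13, the latter -0.08 without ko/KO 4.

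Pan-neuronal markers had like levels in both groups. Their mean level ran from 11.28 to 11.35 on the high-Fos arrays and from 11.28 to 11.34 on the low-Fos arrays. The list median was 0.02, with 10 of the 15 higher on the high-Fos arrays and 4 lower. The largest differences, those of Tubb3 at -0.19 and Syn1 at -0.11, were downward, against the direction of most of the list. Of 27 hypothalamic neuropeptides, 19 had the lower mean on the high-Fos arrays, with a median of -0.05, as did 19 of 22 regional transcription factors, with a median of -0.07. Avp differed by -0.47 (10.01 ± 0.42 against 10.48 ± 0.31, SD, n = 6 each) and Npy by -0.40 (9.18 ± 0.40 against 9.58 ± 0.21, SD, n = 6 each), both with overlap and a wide spread. Among the regional factors Hmx3 and Nr5a1, which marks the ventromedial nucleus, differed by -0.15 each.

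Markers of neighbouring regions differed by small amounts. Of 15 thalamic markers 12 were lower, with a median of -0.04, led by Prkcd and Grid2ip at -0.17 each; Prkcd was -0.11 without wt/WT 3 and -0.26 without wt/KO 1. Of 13 cortical and hippocampal markers 9 were lower, with a median of -0.04, led by Nrgn at -0.14 and Slc17a7 at -0.13; Slc17a7 ranged from -0.24 to -0.04 as single arrays were left out. Striatal markers had a median of -0.01, that of all genes, with 5 of 11 higher and 6 lower, Syndig1l being at -0.12 and Penk at 0.10, the latter 0.05 without ko/WT 2. Of 12 pituitary markers 9 were lower, with Gnrhr at -0.18 and Gh at -0.16; Gh was -0.06 without wt/WT 3 and -0.08 without ko/KO 4. Of 11 ependymal and tanycyte markers 7 were lower; Dio2, at 0.15, was 0.06 without ko/WT 4, and Rarres2, at -0.13, was -0.07 without wt/WT 4.

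The differences of several choroid plexus, blood and sex-linked genes rested on single arrays. Ttr differed by -0.54, and by 0.13 without wt/WT 3, and Kl by -0.17, and by -0.03 without the same array. Of 13 choroid plexus markers 10 were lower on the high-Fos arrays. Of 6 blood markers 5 were lower; Alas2, the haem enzyme of red cells, differed by -0.31, and by 0.02 without wt/KO 2, and S100a9 by -0.07, ranging from -0.16 to 0.00 as single arrays were left out. Of 4 sex-linked genes 2 were lower; Xist differed by -0.67, and by 0.10 without ko/WT 4, and Uty by -0.06, ranging from -0.15 to -0.02. Ribosomal protein genes were lower on the high-Fos arrays for 13 of 14, with a median of -0.09 and a mean level of 10.91 to 11.29 against 11.18 to 11.38. They were led by Rps9 at -0.24, which was -0.14 without ko/KO 1, and Rpl19 at -0.17, which was 0.00 when the probesets of a gene were averaged.

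**Figure D4:**
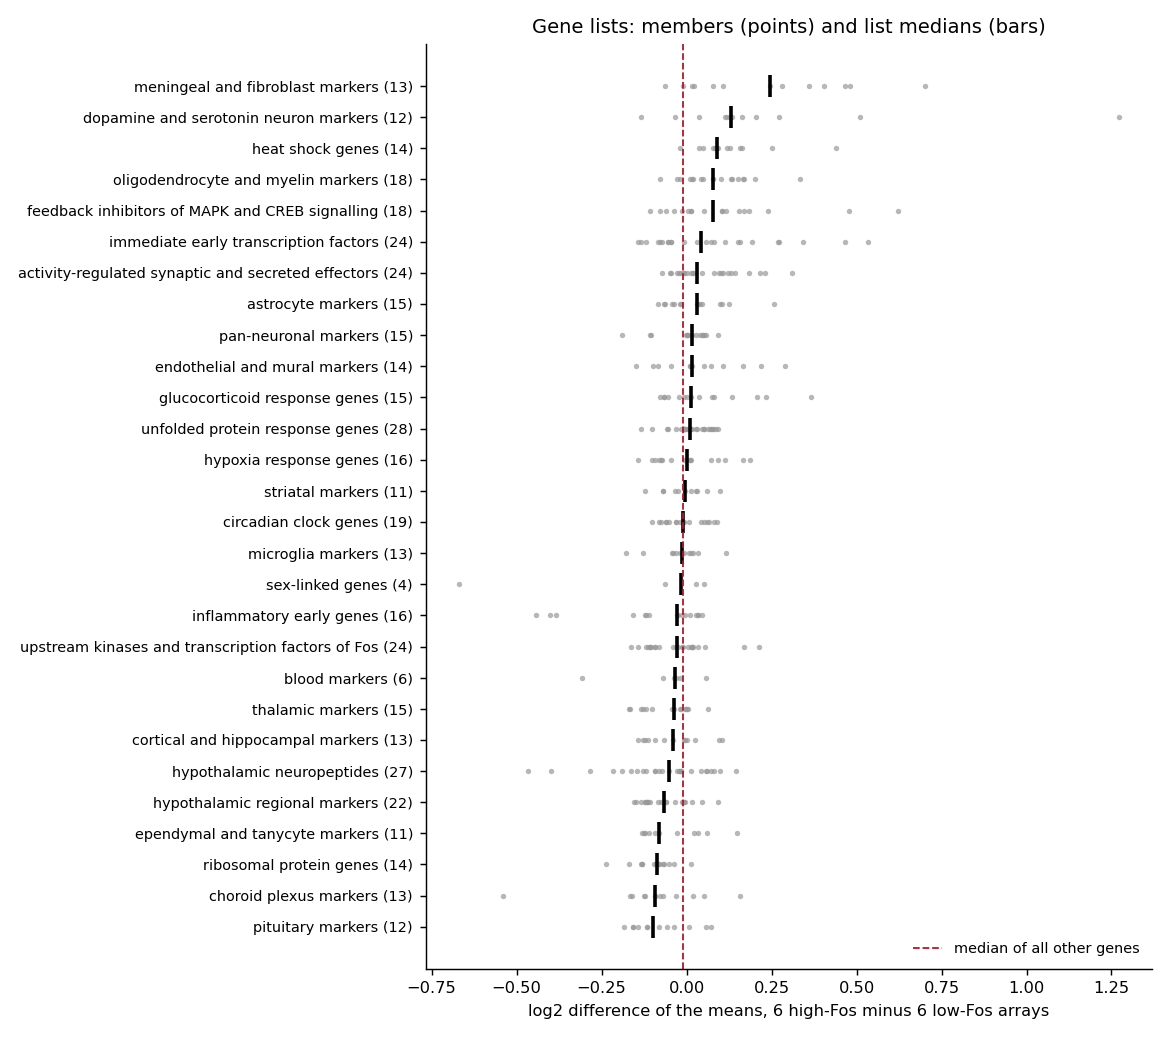
Log2 difference of the means, high-Fos less low-Fos arrays, for each measured member (grey points) of 28 gene lists, with a black bar at each list's median, the number of members in brackets and a dashed red line at the median of all genes, -0.01. Meningeal and fibroblast markers lie highest at a median of 0.25 and pituitary markers lowest at -0.10; Tph2 is the point at 1.27.

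The 6 middle arrays hold values that the comparison did not use, over a Fos range of 0.12 log2 units. There, 41 of the 62 genes separated upwards, 66.1%, correlated positively with Fos, where 51.9% of all genes did. Of the 52 separated downwards, 32, or 61.5%, correlated negatively, where 48.1% of all genes did. By Spearman correlation the shares were 74.2% and 71.2%, against 51.3% and 47.5% of all genes. Among the leading genes the Pearson coefficients over these 6 arrays were 0.461 for Nr4a1, 0.476 for Dusp1 and 0.488 for Btg2, and the Spearman coefficients 0.232, 0.116 and 0.580. For Egr1 they were -0.033 and -0.044, since wt/WT 1, which shared the lowest Fos of the 6, had the highest Egr1. With 6 arrays and so narrow a range these coefficients are descriptions. The mean correlation with the other arrays was lowest in the series on wt/WT 2 (0.9793), ko/KO 2 (0.9797) and wt/WT 1 (0.9806). Of these middle arrays, ko/KO 2 and wt/WT 1 shared the lowest Fos of the 6, 7.83, and wt/WT 2 had the highest, 7.95. Their part in the shares above was not tested, and genes that vary together are not separate observations.

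Fos was spread over both genotype labels. By the genotype field, 3 of 6 high-Fos and 3 of 6 low-Fos arrays were KO (Fisher exact test, two-sided, p = 1). By the title ending, 4 of 6 high-Fos and 3 of 6 low-Fos arrays were ko (Fisher exact test, p = 1). The first number in the sample title, whose meaning is not given, averaged 6.0 on the high-Fos arrays, which held 1 to 10, and 11.5 on the low-Fos arrays, which held 2 and 3 and then 14 to 18. That difference did not pass an exact permutation test (two-sided, p = 0.128, 0.511 after Benjamini-Hochberg adjustment over the 4 label tests). The second title number averaged 323.7 and 324.8 (exact permutation p = 0.846, adjusted p = 1).

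Over all 18 arrays, Fos was 7.85 ± 0.30 on arrays ending ko (SD, n = 10) and 7.78 ± 0.37 on those ending wt (SD, n = 8; two-sided exact permutation p = 0.638, adjusted over 6 tests 0.818). By the field it was 7.86 ± 0.35 for KO and 7.79 ± 0.31 for WT (SD, n = 9 each, exact permutation p = 0.655, adjusted 0.818). Every label group held both high-Fos and low-Fos arrays. Egr1 differed by 0.05 by ending (exact permutation p = 0.681) and by 0.00 by field (exact permutation p = 1). Npas4 had the largest label difference of the 3 genes, 7.18 ± 0.22 on arrays ending ko (SD, n = 10) against 6.97 ± 0.18 on those ending wt (SD, n = 8; exact permutation p = 0.0515, adjusted 0.186). By the field the difference in Npas4 was 0.20 (exact permutation p = 0.0621, adjusted 0.186). The limma fit over all genes gave Npas4 an unadjusted p of 0.0315 by ending and 0.038 by field, with adjusted p of 0.884 and 0.694.

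**Figure D5:**
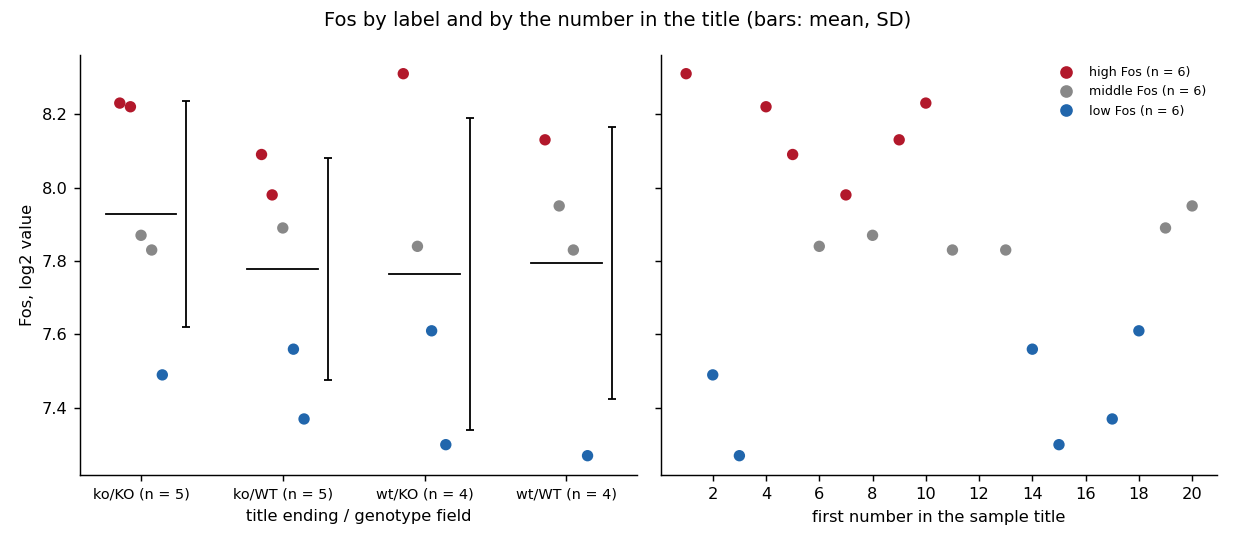
Log2 value of Fos (y axis) by title ending and genotype field (left; points are arrays, horizontal lines the group means and vertical bars the SD) and against the first number in the sample title (right), coloured by Fos group. Each of the 4 label groups holds at least 1 high-Fos and 1 low-Fos array. The high-Fos arrays carry title numbers between 1 and 10, a range in which low-Fos arrays hold 2 and 3 and middle arrays 6 and 8.

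Across all genes the labels gave no call. A limma fit on the 18 arrays called 0 of 19937 genes by title ending at a Benjamini-Hochberg adjusted p of 0.05, with a lowest adjusted p of 0.884 and 923 genes at an unadjusted p under 0.05. By the genotype field it called 0 genes, with a lowest adjusted p of 0.694 and 1386 genes at an unadjusted p under 0.05. Of the 62 genes separated upwards by Fos, 59 had the higher mean with the ending ko, where 10291 of the 19936 genes did, and 52 with the field KO, where 9298 did. Of the 52 separated downwards, 17 were higher with the ending ko and 16 with the field KO. The label groups and the Fos groups are made of the same arrays, so these counts are set side by side and not tested. With each gene's values centred within the 4 label groups before the Fos groups were compared, Egr1, Nr4a1, Dusp1 and Btg2 differed by 0.44, 0.53, 0.58 and 0.46.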

How the data were processed

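The authors deposited 1 log2 value for each probeset on each array; the log2 scale was inferred from the range of the values, 1.11 to 14.54. RMA and MAS5 are named, with no role or version, in the submitters' processing notes. Scanner files and detection calls were not analysed here. RMA, where used, sets arrays on a common distribution, which removes differences in total signal and compresses small differences between dim probesets.

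Of 34760 probesets, 21640 had 1 gene symbol, 1321 several and 11799 none; only the first were named. RefSeq (GRCm38.p6) held 21553 of their Entrez identifiers. The brightest probeset of a gene over the 18 arrays gave 19937 genes. Differences between the Fos groups are differences of mean log2 values, and a gene is called separated where every array of one group lies above every array of the other. Labels were tested with limma 3.58.1 (lmFit and eBayes, R 4.3.3), checked on simulated data, and with exact permutation and Fisher tests.

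The rule named Fos, Egr1 and Npas4; from each of 28 lists the separated members (up to 4) or else the 2 with the largest differences; outside the lists, predicted genes passed over, the 12 highest and 12 lowest separated genes at or above median brightness; and the 8 highest and 4 lowest correlations with Fos. Genes and lists were chosen with earlier results of these data known. A list of mitochondrially encoded genes had no measured member. The number of arrays limits the precision.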

Additional observations from a re-analysis of the deposited data

Results flagged for a closer look

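Dixon's ratio was taken for each gene in each Fos group of 6 arrays, and in 12 of these 170 sets an array lay far from the others. For genes chosen without regard to their values, chance alone gives this in about 1 in 20. Many of these genes were named for large differences, which a single outlying array can enlarge, so that rate is no expectation for this set. In the low-Fos group, wt/WT 3 was high in the choroid plexus genes Ttr, at 12.80, and Kl, at 7.24; wt/KO 2 was high in Alas2, at 9.08; and wt/KO 1 was high in Ddit3, at 8.38, and low in Uty, at 4.14. Also in the low-Fos group, ko/WT 1 was low in Nudt12, at 7.74, and high in Gsk3a, at 10.29, and ko/WT 2 was low in Clp1, at 7.69. In the high-Fos group, ko/WT 4 was low in Xist, at 5.93, and high in Dio2, at 7.91. Also in the high-Fos group, ko/KO 4 was low in Arrdc3, at 9.29, and wt/WT 4 was low in Srebf1, at 8.93.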

How the results depend on the processing

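The counts of separated genes, 62 upwards and 52 downwards, moved with most choices. They were 154 and 133 with 5 against 5 arrays, and 2 and 2 with 9 against 9, where Hnrnpc and Yipf6 lay higher and Asf1b and Pkig lower. Leaving out each of the 12 arrays in turn gave 67 to 137 upwards and 61 to 126 downwards; fewer arrays make separation easier by construction. The highest counts came without wt/KO 2 (137 and 118), wt/KO 3 (128 and 125) and wt/KO 1 (106 and 126). Without the 2 arrays farthest from the median of Fos, chosen after seeing the data, they were 140 and 190. Ranked by Egr1 they were 18 and 24, of which 10 and 15 were shared with the Fos ranking. Ranked by Npas4 they were 9 and 1, with 0 shared. With values centred within label groups they were 77 and 66 (31 and 27 shared), and without the array high in Ttr 74 and 41 (57 and 33 shared). Quantile normalization gave 71 and 90 (50 and 39 shared), and leaving out the array low in Xist, with wt/WT 2 taking its place, gave 19 and 49; the cause was not tested. None of the 37 separated genes named by the rule changed the sign of its difference under these alternatives, and 4 of the overlapping ones did, Alas2, S100a9, Xist and Ttr. A separated gene keeps its sign by construction where arrays of the groups or dim genes are only left out, as with 5 against 5 arrays. Only new rankings, 9 against 9 arrays, centring, quantile normalization and averaged probesets could have changed it. The differences of Egr1, Nr4a1, Dusp1 and Btg2 ran from 0.43 to 0.49, 0.49 to 0.56, 0.58 to 0.66 and 0.39 to 0.52 as single arrays were left out. With 9 against 9 arrays Egr1 differed by 0.30 and Nr4a1 by 0.40. Of the results other than the counts, 36 moved and 76 did not when arrays were ranked by Npas4, more than under any other alternative. None of Egr1, Nr4a1, Dusp1 and Btg2 was separated in that ranking. It put ko/KO 3, with Egr1 at 7.54, among the high arrays and ko/WT 5, with Egr1 at 7.88, among the low ones. For Npas4 after quantile normalization, the label differences were 0.22 by ending and by field, with limma's unadjusted p at 0.0233 for both (0.0315 and 0.038 on the deposited values) and adjusted p of 0.951 and 0.821; the exact permutation p, unadjusted, then lay under 0.05. By either label limma called 0 genes under each alternative. No paired analysis was possible because the labels give the arrays no shared replicate numbers.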

Other observations

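Probesets without a single gene symbol, 13120 in number, were left out of the counts above. Of these, 47 lay higher on every high-Fos array than on any low-Fos array, or 0.358%, and 18 lay lower, or 0.137%.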
